A study of Rattus norvegicus with 12 samples.

Results

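Bile acid synthesis and transport genes were examined in rat liver after oral dosing with 3 triazole fungicides. The set held 10 genes chosen by name, out of 14217 genes named on the array, each with 1 of the 31042 probe sets. The genes were Cyp7a1, Cyp8b1, Cyp27a1, Cyp7b1, Slc27a5, Baat, Nr0b2, Nr1h4, Slc10a1 and Abcb11. The probe set of Cyp7b1 lay at the 9.02th percentile of mean level and was left out of the tests with the other dim probe sets, so 9 genes entered the fit of 21729 probe sets. The animals were adult male Sprague-Dawley rats of 10 weeks, dosed through a stomach tube every 24 h over 72 h. Myclobutanil and propiconazole were given at 300 mg/kg/day and triadimefon at 175 mg/kg/day, and the labels give neither the vehicle nor what the control rats received. Each of the 4 groups had 3 rats, and each liver was hybridized to its own Affymetrix Rat Genome 230 2.0 array without pooling. The time of day at which livers were taken is not given in the sources used here.

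Hepatocytes make bile acids from cholesterol. In the classic pathway Cyp7a1, cholesterol 7-alpha-hydroxylase, catalyses the rate-limiting step, and Cyp8b1, the sterol 12-alpha-hydroxylase, sets the share of cholic acid. Cyp27a1, a mitochondrial sterol hydroxylase, oxidises the side chain and also opens an alternative pathway in which Cyp7b1, the oxysterol 7-alpha-hydroxylase, follows. Slc27a5 (bile acyl-CoA synthetase) and Baat (bile acid-CoA:amino acid N-acyltransferase) then link bile acids to taurine or glycine. Slc10a1 (NTCP) takes bile acids up from portal blood, and Abcb11 (BSEP) pumps them into the bile canaliculus. Bile acids bind Nr1h4 (FXR), which induces Nr0b2 (SHP) and Abcb11. Nr0b2 has no DNA-binding domain and represses other nuclear receptors, among them Nr5a2 (LRH-1), which binds the Cyp7a1 and Cyp8b1 promoters. Cyp7a1 is also known for a strong daily rhythm in rodent liver.

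The promoters of Nr0b2 and Cyp8b1 are shown because the first is the bile acid gene that passed the test and the second is a known target of its product. RefSeq sequences of the GRCr8 assembly, from 250 bases before the start site to 50 after, had an entry for 6 of the 10 genes. The window of Nr0b2 is chr5:151062910-151063209 on the plus strand, and that of Cyp8b1 is chr8:130457543-130457842 on the minus strand. Capitals mark matches to the motifs searched on both strands. The Nr5a2 site was searched as CAAGGNCA. The E-box, which clock factors read, was searched as CACGTG. The D-box, which Dbp reads, was searched as TTATGTAA. The TATA box was searched as TATAAA.
Nr0b2: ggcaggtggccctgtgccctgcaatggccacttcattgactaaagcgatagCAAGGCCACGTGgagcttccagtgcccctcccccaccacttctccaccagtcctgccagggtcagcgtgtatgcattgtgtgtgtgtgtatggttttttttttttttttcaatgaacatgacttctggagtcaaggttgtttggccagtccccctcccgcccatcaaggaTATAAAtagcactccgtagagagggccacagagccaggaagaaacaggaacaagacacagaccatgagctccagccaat
Cyp8b1: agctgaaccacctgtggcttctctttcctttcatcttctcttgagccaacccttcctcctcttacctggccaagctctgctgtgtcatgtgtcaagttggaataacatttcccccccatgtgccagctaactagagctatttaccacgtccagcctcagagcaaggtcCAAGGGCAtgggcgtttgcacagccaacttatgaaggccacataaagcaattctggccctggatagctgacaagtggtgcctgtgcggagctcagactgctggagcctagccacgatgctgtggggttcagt
In Nr0b2 the match CAAGGCCA lay at -199 to -192 from the start site and overlapped the E-box CACGTG at -193 to -188, and TATAAA lay at -29 to -24. In Cyp8b1 the match CAAGGGCA lay at -82 to -75. Cyp27a1 was the other gene with an Nr5a2 match, TGACCTTG at -236 to -229, which is the motif on the opposite strand. Among 33469 rat promoter windows of this length, 6.55% held CAAGGNCA, 6.42% the E-box, 0.89% the D-box and 14.22% TATAAA. These letter matches are descriptions and were not tested for binding.

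Each level given here is a deposited log-like score that was then quantile normalized across arrays. The scale's log base is unknown, so differences are given on that scale and no fold change is derived. For orientation, the spike-in controls cre and bioB differed by 2.61 in the median array. A gene was called when its limma adjusted p was below 0.05, with p-values adjusted over all 21729 probe sets. The 3 comparisons with control share the same control arrays. Myclobutanil replicate 1 stood apart from the others, with a median correlation of 0.920 against 0.950 to 0.975 for the other 11 arrays. The 3′ minus 5′ score of GAPDH, which depends on RNA integrity, averaged 0.659 ± 0.252 in the 3 controls (mean ± SD), 0.624 ± 0.128 with myclobutanil, 0.434 ± 0.106 with propiconazole and 0.587 ± 0.212 with triadimefon. Hepatocyte markers, 11 of 12 on the array and all 11 above the dim threshold, had a mean level per array of 3.11 to 3.25 in control, 2.94 to 3.19 with myclobutanil, 3.19 to 3.27 with propiconazole and 3.14 to 3.24 with triadimefon.

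Nr0b2 (1368376_at), the feedback repressor, was lower in every treated rat than in every control rat. Its level was 1.10, 1.69 and 0.996 in control replicates 1 to 3. With myclobutanil it was 0.319, 0.441 and 0.376. With propiconazole it was 0.514, 0.504 and 0.747, and with triadimefon 0.544, 0.724 and 0.697. All 9 treated arrays lay below all 3 controls after quantile normalization, after median centring and in the deposited values. The highest treated array was propiconazole replicate 3, and the control group had the widest range, with replicate 2 the highest of all arrays. Nr0b2 fell with myclobutanil by 0.88 ± 0.15 (difference ± SE, 3 rats against 3; 95% interval -1.21 to -0.557; limma adjusted p = 0.0197). The difference was -0.67 ± 0.15 with propiconazole (limma adjusted p = 0.0544) and -0.61 ± 0.15 with triadimefon (0.101), and neither was called. The myclobutanil call ended without myclobutanil replicate 3 (-0.88, limma adjusted p = 0.0581) and when the pair of groups was fitted alone (0.165). Without control replicate 2 the differences were -0.67 for myclobutanil (limma adjusted p = 0.0241), -0.46 for propiconazole (0.0892) and -0.39 for triadimefon (0.126).

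Nr1h4 (1369073_at), the bile acid receptor that induces Nr0b2, was not called in any comparison. Its level was 1.34, 1.56 and 1.72 in control, 1.61, 1.49 and 1.17 with myclobutanil, 1.29, 1.27 and 1.22 with propiconazole, and 1.24, 1.36 and 1.50 with triadimefon. The propiconazole arrays were close together and all below the controls, whereas the other treated groups overlapped the controls. With median centring or the deposited values the propiconazole group overlapped the controls too. The difference with propiconazole was -0.28 ± 0.13 (95% interval -0.556 to -0.00352; limma adjusted p = 0.337). It was -0.12 ± 0.13 with myclobutanil and -0.17 ± 0.13 with triadimefon.

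Cyp7a1 (1368458_at) spanned more within each treated group, with ranges of 1.66, 1.32 and 1.36 for myclobutanil, propiconazole and triadimefon, than within the control group, with 0.484. Its level was 1.42, 1.90 and 1.46 in control replicates 1 to 3. With myclobutanil it was 1.88, 1.80 and 0.216, so that 2 rats lay within the control range and replicate 3 was the lowest of all 12 arrays. Propiconazole arrays read 2.20, 1.57 and 0.884, with 1 rat above, 1 within and 1 below the control range. Triadimefon arrays read 3.16, 1.81 and 2.66, and replicates 1 and 3 were the highest of the 12 while replicate 2 lay within the control range. Group means were 1.59 ± 0.267 (SD, n = 3) in control, 1.30 ± 0.936 with myclobutanil, 1.55 ± 0.658 with propiconazole and 2.54 ± 0.686 with triadimefon. In this order of means, myclobutanil, propiconazole, control and triadimefon, each neighbour overlapped the next. The difference from control was -0.29 ± 0.47 with myclobutanil (limma adjusted p = 0.742), -0.038 ± 0.47 with propiconazole (0.987) and 0.95 ± 0.47 with triadimefon (0.418). The 95% interval for triadimefon ran from -0.083 to 1.99, and that for myclobutanil from -1.33 to 0.741, and both include 0. Without myclobutanil replicate 3, the myclobutanil difference was 0.25.

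**Figure D1:**
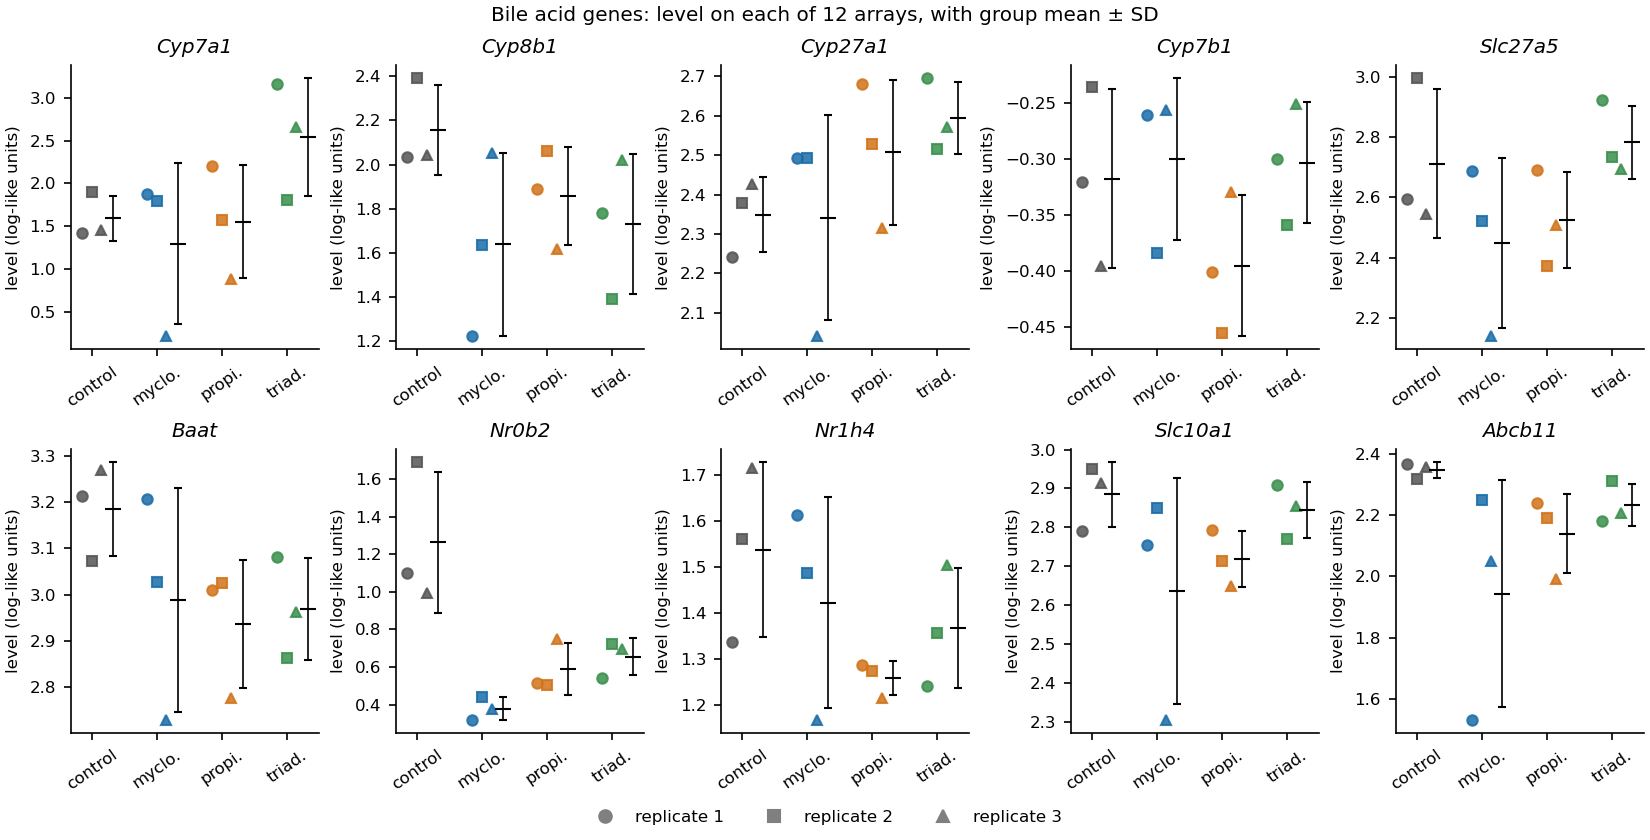
Level of each bile acid gene on every array, on the quantile-normalized deposited log-like scale, with 1 point per rat and a bar at the mean of each group of 3. Nr0b2 is lower in all 9 treated rats than in the 3 controls, and Cyp7a1 runs from 0.216 to 3.16 with overlapping groups.

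Cyp8b1 (1368435_at), which directs synthesis to cholic acid, had lower means in all treated groups, but no difference was called. Its level was 2.04, 2.39 and 2.05 in control, 1.22, 1.64 and 2.05 with myclobutanil, 1.89, 2.06 and 1.62 with propiconazole, and 1.78, 1.39 and 2.02 with triadimefon. The triadimefon arrays all lay below the controls, and 7 of 9 treated arrays did so in all, or 8 of 9 with median centring or the deposited values. The difference was -0.52 ± 0.22 with myclobutanil (95% interval -0.991 to -0.0469; limma adjusted p = 0.200), -0.30 ± 0.22 with propiconazole (0.569) and -0.42 ± 0.22 with triadimefon (0.429). Without myclobutanil replicate 1, the lowest array, the myclobutanil difference was -0.31.

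Cyp27a1 (1387914_at), of side-chain oxidation, was 2.24, 2.38 and 2.43 in control, 2.49, 2.49 and 2.04 with myclobutanil, 2.68, 2.53 and 2.31 with propiconazole, and 2.69, 2.52 and 2.57 with triadimefon. Triadimefon arrays all lay above the controls with quantile normalization, where 7 of 9 treated arrays exceeded every control, but 1 of 9 did with median centring or the deposited values. The differences from control were -0.0067 ± 0.13, 0.16 ± 0.13 and 0.24 ± 0.13 with myclobutanil, propiconazole and triadimefon, and the smallest limma adjusted p among them was 0.456. Cyp7b1 (1388188_at) was dim, with levels between -0.455 and -0.236 over the 12 arrays. In a fit of all 31042 probe sets its differences were 0.017, -0.078 and 0.014 with myclobutanil, propiconazole and triadimefon (limma adjusted p = 0.866, 0.618 and 0.960).

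For the conjugating enzymes, Slc27a5 (1387325_at) was 2.59, 3.00 and 2.54 in control, 2.69, 2.52 and 2.14 with myclobutanil, 2.69, 2.37 and 2.51 with propiconazole, and 2.92, 2.73 and 2.70 with triadimefon. The groups overlapped in every comparison with control. Its differences were -0.26 ± 0.16 with myclobutanil and -0.19 ± 0.16 with propiconazole. With triadimefon the sign turned with the scaling, at 0.072 after quantile normalization, -0.042 after median centring and -0.053 in the deposited values. Baat (1387508_at) was 3.21, 3.07 and 3.27 in control, 3.21, 3.03 and 2.73 with myclobutanil, 3.01, 3.02 and 2.78 with propiconazole, and 3.08, 2.86 and 2.96 with triadimefon. Propiconazole arrays all lay below the controls, and in all 7 of 9 treated arrays did. The differences of Baat were -0.20 ± 0.12, -0.25 ± 0.12 and -0.22 ± 0.12 with myclobutanil, propiconazole and triadimefon (limma adjusted p = 0.358, 0.368 and 0.468). Without myclobutanil replicate 3 the myclobutanil difference was -0.068 for Baat and -0.11 for Slc27a5. Without control replicate 2 that of Slc27a5 was -0.12 with myclobutanil and -0.045 with propiconazole.

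Slc10a1 (1368609_at), the uptake carrier, was 2.79, 2.95 and 2.92 in control, 2.76, 2.85 and 2.30 with myclobutanil, 2.79, 2.71 and 2.65 with propiconazole, and 2.91, 2.77 and 2.86 with triadimefon. All treated groups overlapped the controls after quantile normalization, whereas the propiconazole arrays all lay below them with median centring or the deposited values. Myclobutanil replicate 3 was the lowest array. The difference was -0.25 ± 0.12 with myclobutanil (limma adjusted p = 0.264), -0.17 ± 0.12 with propiconazole (0.574) and -0.040 ± 0.12 with triadimefon (0.929). Without myclobutanil replicate 3 the first of these was -0.083.

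Abcb11 (1368769_at), the canalicular export pump and like Nr0b2 a known target of Nr1h4, was 2.37, 2.32 and 2.36 in control. It was 1.53, 2.25 and 2.05 with myclobutanil, 2.24, 2.19 and 1.99 with propiconazole, and 2.18, 2.31 and 2.21 with triadimefon. All 9 treated arrays were below the tight control group with quantile normalization, and 8 of 9 with median centring or the deposited values. No difference was called. The values were -0.40 ± 0.15 with myclobutanil (95% interval -0.730 to -0.077; limma adjusted p = 0.159), -0.21 ± 0.15 with propiconazole (0.571) and -0.11 ± 0.15 with triadimefon (0.796). Without myclobutanil replicate 1, the array that stood apart, the myclobutanil difference was -0.20.

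**Figure D2:**
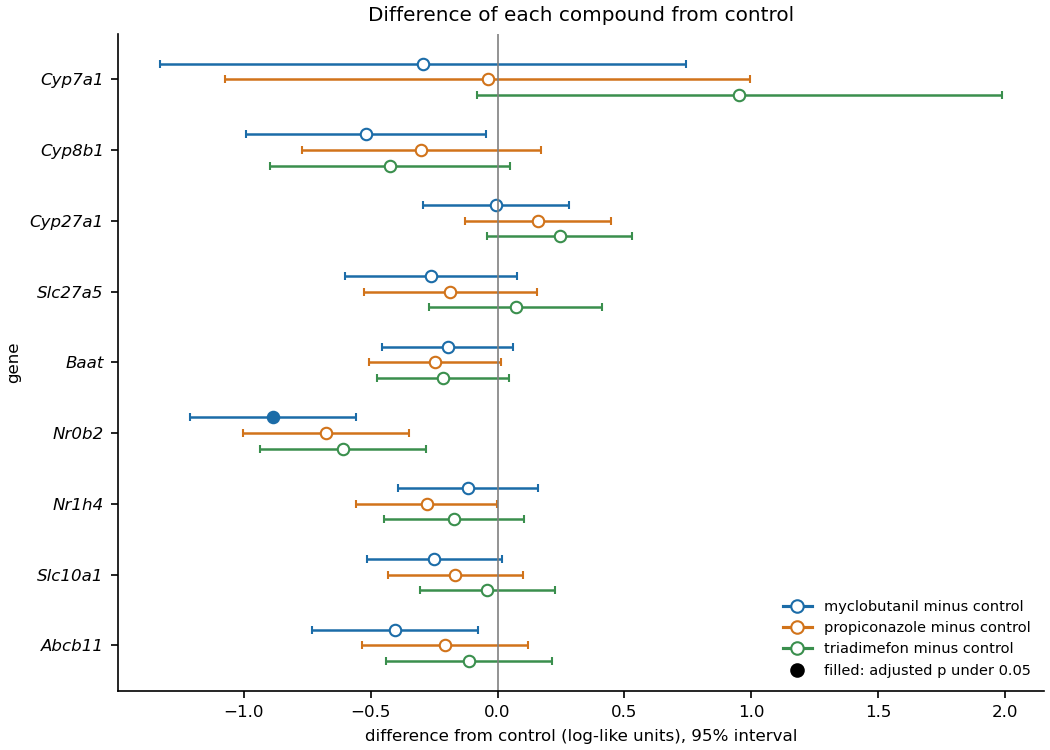
Difference of each tested bile acid gene from control, for each compound, with 95% intervals from the limma fit on the quantile-normalized log-like scale. The call is Nr0b2 with myclobutanil at -0.88, and the intervals of Cyp7a1 are the widest.

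Over the 9 tested genes, 1 fell with myclobutanil, which was Nr0b2, and none rose. By the same rule 1.82% of all tested probe sets were called in that comparison, and 0.787% were called lower and 1.03% higher. With propiconazole 0 of 9 were called by limma, against 1.43% of all probe sets (0.81% higher and 0.621% lower), and 2 of 9 (Nr0b2 and Nr1h4) had an unadjusted p under 0.05, against 14.5% of all. With triadimefon 0 of 9 were called by limma, against 0.769% (0.488% higher and 0.281% lower), and Nr0b2 alone had an unadjusted p under 0.05, against 13.4% of all. At that level myclobutanil had 3 of 9 (Nr0b2, Abcb11 and Cyp8b1), against 21.1% of all. With estimated array weights 1 of 9 was called for each of the 3 compounds, and this was Nr0b2, where 7.68%, 6.04% and 4.73% of all probe sets were called (limma adjusted p = 0.0109 for propiconazole and 0.0191 for triadimefon).

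Most of the differences were below 0. All 9 genes were below 0 with myclobutanil (median -0.26), 8 of 9 with propiconazole (median -0.21) and 6 of 9 with triadimefon (median -0.11). The medians over all tested probe sets were -0.014, -0.012 and -0.013. Without myclobutanil replicate 3, the myclobutanil differences were 0.25 for Cyp7a1, 0.14 for Cyp27a1 and 0.012 for Nr1h4. Those of the other tested bile acid genes stayed below 0. The treated and control groups did not overlap, after quantile normalization, for 2 of 9 genes with myclobutanil, 4 with propiconazole and 4 with triadimefon, where 23.3%, 27.8% and 28.3% of all tested probe sets did not overlap. Nr0b2 and Abcb11 were the 2 genes without overlap for all 3 compounds. With median centring, and likewise with the deposited values, the counts were 3, 4 and 2, with Cyp8b1 added for myclobutanil, Slc10a1 in place of Nr1h4 for propiconazole, and Cyp27a1 and Abcb11 overlapping for triadimefon. Of all tested probe sets 21.5%, 26.33% and 26.55% did not overlap with median centring, in the same order of compounds. With the deposited values 19.66%, 28.81% and 27.2% did not. Under both of these scalings Nr0b2 was the 1 bile acid gene without overlap for all 3 compounds. These counts share the control arrays, so the 3 comparisons are set side by side here and not combined.

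Myclobutanil and propiconazole were given at the same dose for the same time and could be compared directly, which is 1 pair. The compounds share the triazole ring. Propiconazole carries a dioxolane ring, which myclobutanil lacks, and myclobutanil carries a nitrile. No bile acid gene was called between them by limma, 0 of 9 had an unadjusted p under 0.05, and over all probe sets 0% were called and 10.1% had an unadjusted p under 0.05. Nr0b2 was lower in every myclobutanil rat than in every propiconazole rat, with a difference of -0.21 ± 0.15 (95% interval -0.537 to 0.118; limma adjusted p = 0.590). It was the 1 gene of 9 whose groups did not overlap, where 13.4% of all probe sets did not. For Cyp7a1 the difference was -0.26 ± 0.47 (95% interval -1.29 to 0.779), for Abcb11 -0.20 ± 0.15 (-0.523 to 0.130), and for Nr1h4 0.16 ± 0.13 (-0.113 to 0.440). These intervals do not show that the compounds acted alike. Triadimefon, with a ketone and a lower dose, was not tested against the others, and its values stand beside theirs above.

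The rat-to-rat spread of Cyp7a1 was among the widest on the array. Cyp7a1 was read rat by rat because it varies between animals, so the ranks below describe that spread and do not test it. Its within-group SD of 0.680 ranked 21st from the highest of 21729 probe sets, at the 99.91th percentile. Among the 1000 probe sets nearest in mean level it stood at the 99.4th percentile, where the median SD was 0.137. Cyp8b1 had the next widest spread of the tested bile acid genes, with an SD of 0.301 at the 91.4th percentile among probe sets of like level, and Nr0b2 had 0.208 at the 90.3th. Baat, Slc10a1 and Cyp27a1 had SDs of 0.158, 0.160 and 0.173, at the 61.6th, 62.6th and 65.6th percentiles. With 1 array left out, or with another scaling, the SD of Cyp7a1 ran from 0.528 to 0.727.

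**Figure D3:**
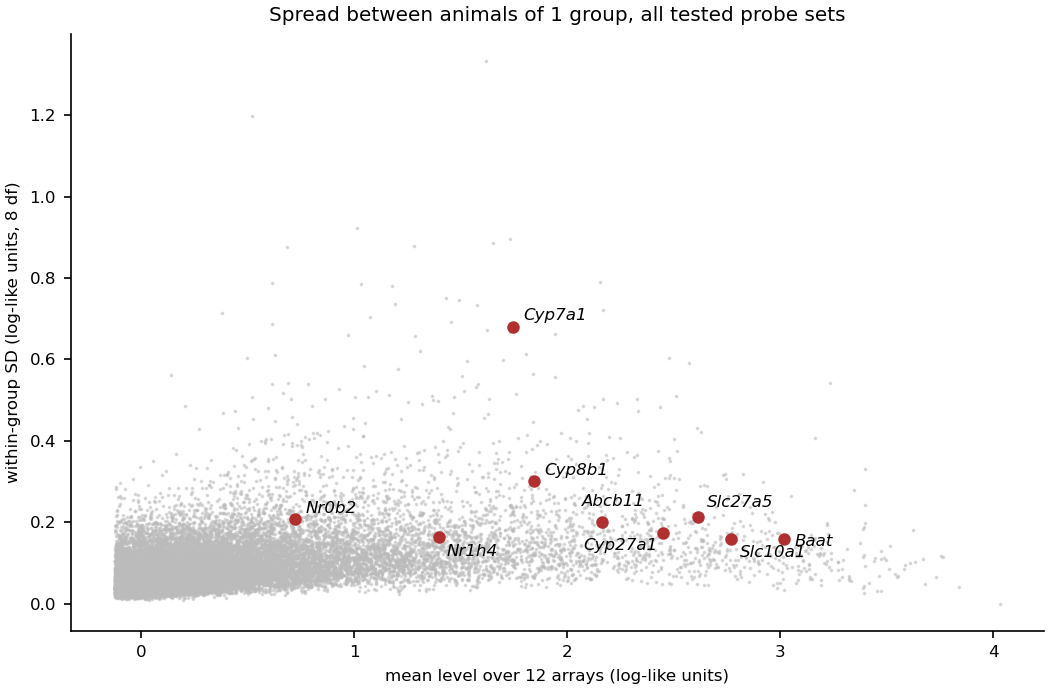
Within-group SD against mean level for all tested probe sets, both on the quantile-normalized log-like scale, with the bile acid genes marked. Cyp7a1 lies far above probe sets of like level with an SD of 0.680, and Baat, Slc10a1 and Cyp27a1 lie within the cloud.

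Whether the other genes followed Cyp7a1 from rat to rat was asked with a fit of group plus the Cyp7a1 level of each array, which uses differences within groups. Slopes per unit of Cyp7a1 were 0.23 ± 0.046 for Cyp27a1 (unadjusted p = 0.000452, limma adjusted p = 0.303), 0.21 ± 0.047 for Slc10a1 (adjusted 0.411), 0.18 ± 0.053 for Baat (0.589) and 0.23 ± 0.072 for Slc27a5 (0.648). None was called. Of the 8 genes, 4 had a slope above 0 with an unadjusted p under 0.05, where 2.43% of all probe sets did and 5.3% had such a p with either sign. In all 5 of 8 slopes were above 0, against 49.1% of all probe sets, and 0% of all probe sets were called. Ranked by p over 21728 probe sets, Cyp27a1 was 30th and Slc10a1 72nd. The slopes of Cyp8b1, Nr0b2 and Abcb11 were near 0, at -0.022 ± 0.14, -0.020 ± 0.099 and -0.040 ± 0.098, each smaller than its error and with a sign that turned under some other settings. Myclobutanil replicate 3, which had the lowest Cyp7a1, was also the lowest of 12 arrays in Cyp27a1, Slc27a5, Baat, Nr1h4 and Slc10a1. Without it the slope of Slc10a1 was 0.11 and that of Cyp27a1 0.19, and without the 2 arrays farthest from the median Cyp7a1 level of all arrays they were 0.12 and 0.21.

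**Figure D4:**
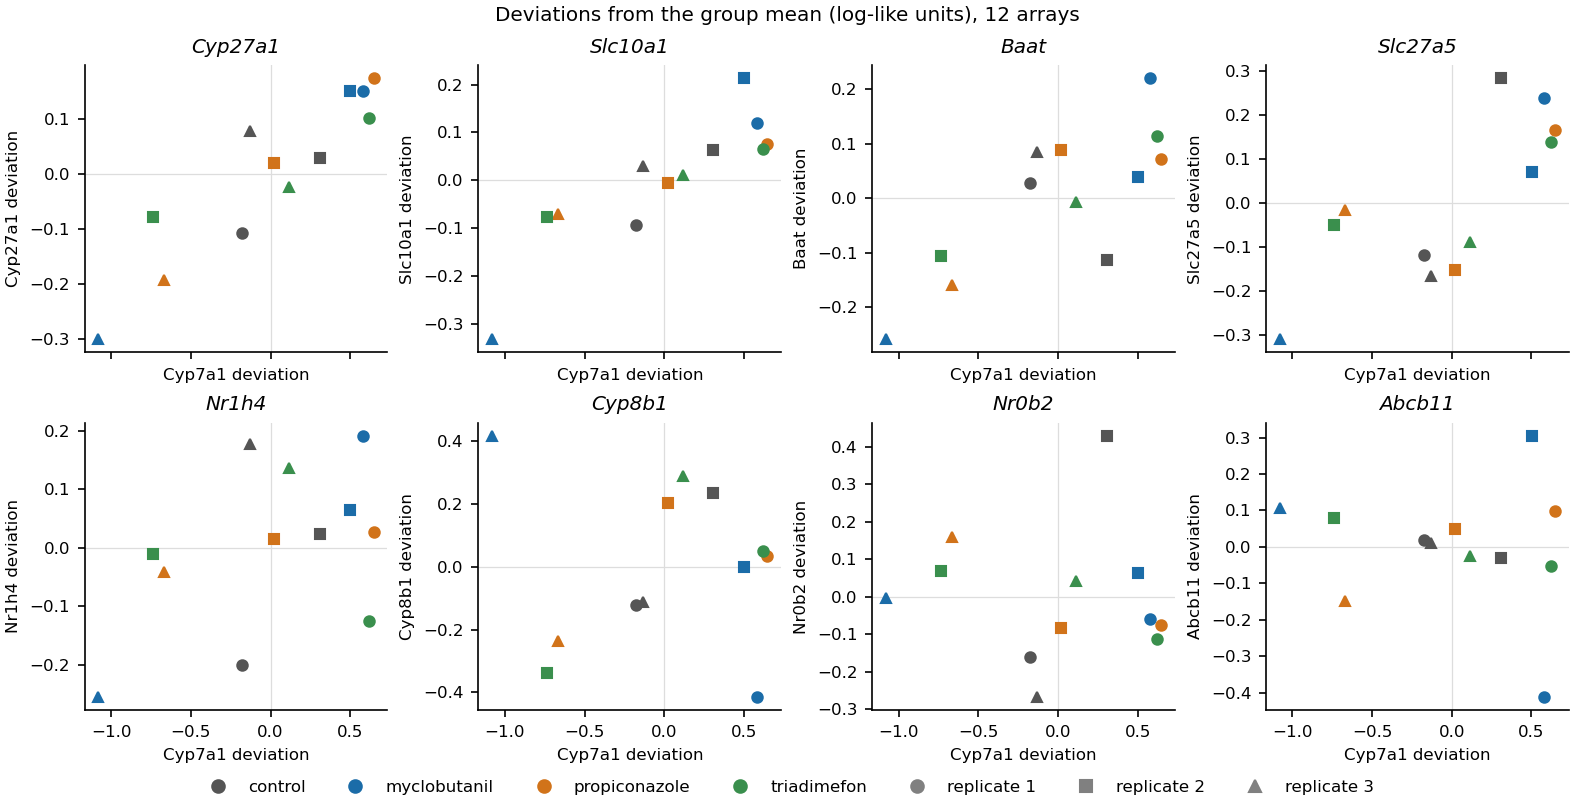
Deviation of other bile acid genes from their group mean against that of Cyp7a1, 1 point per array over 12 arrays. The scale is log-like and quantile-normalized. The slopes of Cyp27a1 and Slc10a1 are 0.23 and 0.21, and those of Nr0b2 and Cyp8b1 are near 0, with none called.

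The other enzymes of bile acid synthesis held no call for any compound, with 14 of 17 listed genes tested. At an unadjusted p under 0.05, 4 of 14 were lower with myclobutanil, 1 with propiconazole and 1 with triadimefon. Of all tested probe sets 21.1%, 14.5% and 13.4% had such a p with either sign. The counts at that level in the lists that follow stand against the same shares, and those between myclobutanil and propiconazole against 10.1%. Counts of limma calls stand against 1.82%, 1.43% and 0.769% of all tested probe sets with myclobutanil, propiconazole and triadimefon, and 0% between the first 2. Hsd3b7, the enzyme after Cyp7a1 that oxidises the sterol ring, differed by -0.50 ± 0.13 with myclobutanil (limma adjusted p = 0.0835) and -0.33 ± 0.13 with triadimefon. Acox2, a peroxisomal oxidase of the bile acid side chain, differed by -0.50 ± 0.16 with myclobutanil (limma adjusted p = 0.117). Of the regulators, 14 of 18 were tested and none was called by limma, with 6, 1 and 1 at an unadjusted p under 0.05 with myclobutanil, propiconazole and triadimefon. Mafg, an FXR-induced repressor, differed by -0.24 ± 0.069 with myclobutanil, and its other probe set by -0.023 (limma adjusted p = 0.822). Ppargc1a, a coactivator that rises on fasting and can induce Cyp7a1, differed by 0.31 ± 0.083 with triadimefon, and its other probe set rose by 0.69 (limma adjusted p = 0.0212).

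Among other transporters, Abcc3 (MRP3), which exports bile acids and conjugates to blood across the basolateral membrane, rose with myclobutanil. Its mean was 0.69 with myclobutanil against -0.0015 in control, a difference of 0.69 ± 0.11 (limma adjusted p = 0.0133). The call ended without control replicate 2 (0.68, limma adjusted p = 0.0635) or control replicate 3 (0.68, 0.0710). With propiconazole the Abcc3 difference was 0.40 ± 0.11 (limma adjusted p = 0.109) and with triadimefon 0.45 ± 0.11 (0.0917), neither called. It was the 1 call among 8 of 10 efflux genes tested, where with propiconazole and triadimefon 0 were called by limma and 3 and 4 had an unadjusted p under 0.05. Going by the brightest probe set of each gene, the 6 uptake genes held no call, but another probe set of Slco1b2, a sinusoidal carrier of organic anions, fell with propiconazole by 0.50 (limma adjusted p = 0.0407), where the first differed by -0.39. At an unadjusted p under 0.05 there were 2, 4 and 1 uptake genes with myclobutanil, propiconazole and triadimefon. Slco2b1, an organic anion carrier, differed by -0.29 ± 0.076, -0.25 ± 0.076 and -0.20 ± 0.076 with myclobutanil, propiconazole and triadimefon. Abcb4 (MDR3), the phospholipid transporter of the canaliculus, differed by -0.52 ± 0.17 with propiconazole and -0.54 ± 0.17 with triadimefon.

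Of 11 further FXR targets 9 were tested, and Pltp, the phospholipid transfer protein of plasma lipoproteins, fell with myclobutanil by 0.53 ± 0.081 (limma adjusted p = 0.0122). That call ended without control replicate 3 (-0.46, limma adjusted p = 0.0565) and with the pair of groups fitted alone (0.127). The median difference of the FXR targets was -0.20 with myclobutanil, -0.11 with propiconazole and -0.11 with triadimefon, and with the last 2 compounds 0 were called by limma and 2 and 1 had an unadjusted p under 0.05. Going by the brightest probe set of each gene, none of the 8 LXR targets was called by limma, with 1, 3 and 3 at an unadjusted p under 0.05 in the same order of compounds. Among them the cholesterol exporter genes Abcg5 and Abcg8 differed by 0.56 ± 0.19 and 0.32 ± 0.11 with triadimefon. Probe sets of Abca1, the cellular cholesterol exporter, disagreed with triadimefon, where the brightest differed by -0.26 and another rose by 0.29 (limma adjusted p = 0.0446). Between myclobutanil and propiconazole no gene of these lists was called by limma, and 2 synthesis genes, 1 regulator, 3 uptake, 4 efflux, 2 FXR target and 3 LXR target genes had an unadjusted p under 0.05.

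**Figure D5:**
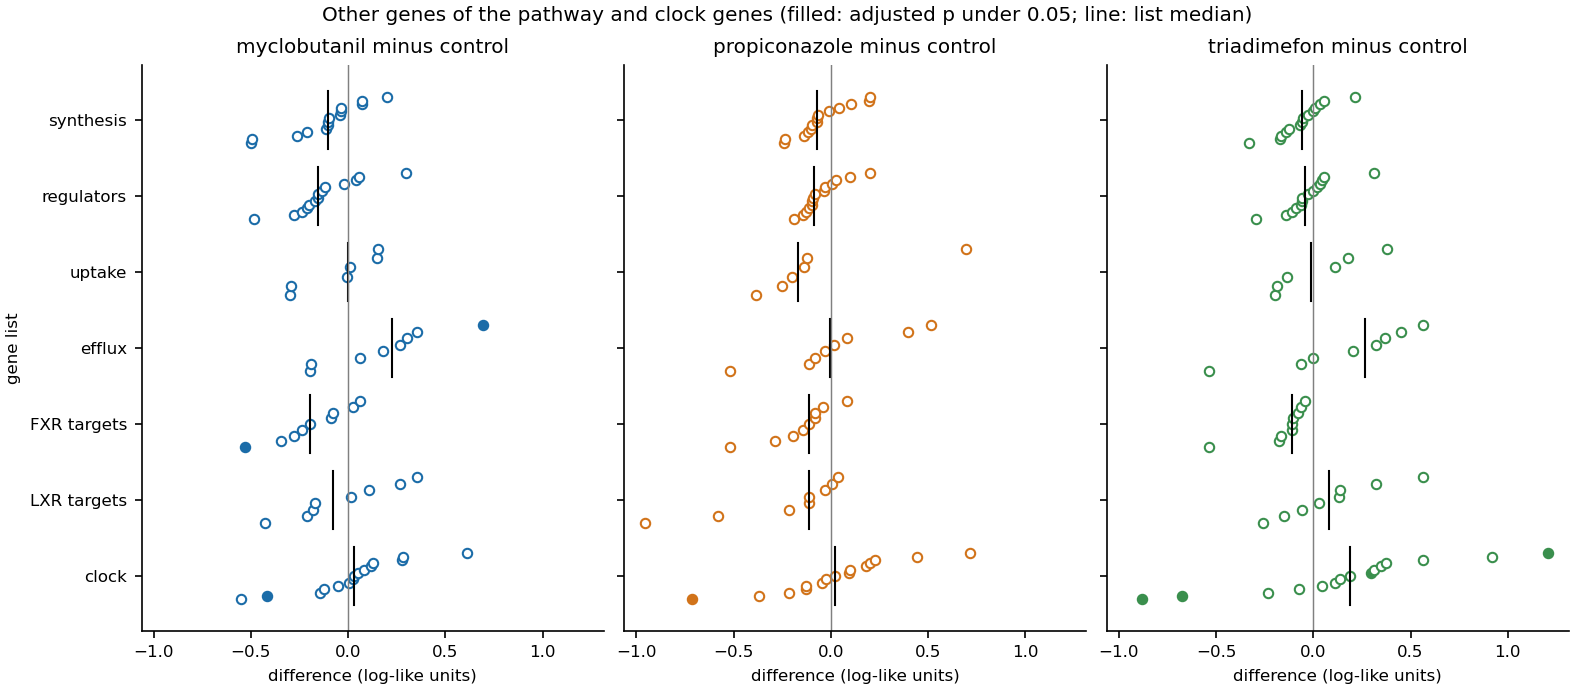
Differences of the tested genes of the 6 pathway lists and the clock list from control, 1 point per gene, for each compound. The scale is log-like and quantile-normalized. Abcc3 at 0.69 and Pltp at -0.53 with myclobutanil are the calls shown outside the clock list.

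Clock genes were examined because Cyp7a1 follows the daily clock and the hour of sampling is unknown. With triadimefon 2 of 15 tested clock genes rose and 2 fell, where 0.488% of all probe sets were called higher and 0.281% lower. Another probe set of Nr1d2, a clock repressor, also rose by 0.50 (limma adjusted p = 0.0227), where its brightest differed by 0.56 and was not called. Dbp, a clock-driven activator that binds D-boxes, rose by 1.21 ± 0.16 (limma adjusted p = 0.0107), and Per3 rose by 0.30 ± 0.037 (0.00923). The other probe set of Per3 differed by 0.040 with triadimefon and was not called (limma adjusted p = 0.703). Bmal1 and Npas2, partners in the activating limb of the clock, fell by 0.68 ± 0.094 (limma adjusted p = 0.0122) and 0.88 ± 0.091 (0.00477). Npas2 also fell with propiconazole by 0.72 ± 0.091 (limma adjusted p = 0.00661) and with myclobutanil by 0.42 ± 0.091 (0.0471). The calls of Dbp, Bmal1 and Per3 ended without control replicate 1 (limma adjusted p = 0.0535, 0.0549 and 0.0518) and without triadimefon replicate 2 (0.0596, 0.0596 and 0.0510), and those of Dbp and Bmal1 also without control replicate 3 (0.0616 and 0.0641). The Npas2 call with myclobutanil ended without any of the 3 controls or myclobutanil replicate 3, at limma adjusted p from 0.0920 to 0.169, and under 5 of 9 other settings. These were median centring (0.0663), no dim filter (0.0578), no intensity trend (0.05004), the replicate number as a block (0.0803) and groups fitted alone (0.216). Npas2 stayed called with propiconazole and triadimefon with each array left out. Within groups, 1 of 15 clock genes had a slope on Cyp7a1 at an unadjusted p under 0.05, against 5.3% of all probe sets. This gene was Per2 at -0.34. Of 8 tested genes that answer to feeding none was called with any compound by limma, and 0, 2 and 1 had an unadjusted p under 0.05 with myclobutanil, propiconazole and triadimefon. Of these 8 genes, 2 had a within-group slope on Cyp7a1 above 0 and 1 below 0 at an unadjusted p under 0.05. Of all probe sets 5.3% had such a p with either sign. The 3 genes were Pck1, of glucose synthesis, at 0.16, Ppargc1a at 0.10 and Pdk4, which rises on fasting, at -0.34. The part of clock phase or feeding in the Cyp7a1 spread was not tested.

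Some markers of liver cell types were called with myclobutanil and propiconazole. Of all tested probe sets 0.787% were called lower and 1.03% higher with myclobutanil, and 0.621% lower and 0.81% higher with propiconazole. Of 10 Kupffer cell markers 8 were tested, and 5 fell with myclobutanil, among them Clec4f by 1.35 ± 0.22 and C1qa by 1.002 ± 0.16. The mean level of the list was 0.209 to 0.817 per myclobutanil array, against 1.12 to 1.28 in control, 1.07 to 1.20 with propiconazole and 1.04 to 1.19 with triadimefon. Lrat, the 1 call among 7 tested stellate cell markers, fell by 0.36 with myclobutanil and 0.40 with propiconazole. The medians of that list were -0.030 and -0.018. Kdr, the 1 call among 6 tested endothelial markers, fell by 0.55 with myclobutanil and 0.64 with propiconazole. The medians of that list were -0.044 and -0.088, and the other probe set of Kdr was not called. Apoa1, the 1 call among 11 tested hepatocyte markers, rose by 0.49 with propiconazole, where the list median was 0. In whole liver RNA, fewer cells of a type and less RNA per cell cannot be told apart. Krt19 and Tspan8, markers of bile duct cells, were left out as dim, and the list had mean levels of 0.043 to 0.072 in control and 0.061 to 0.186 in the treated groups. The part of these markers in the bile acid gene differences was not tested.

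The genes whose deviations from group means most resembled those of Cyp7a1 over 12 arrays were Cnnm3 (Pearson r = 0.96), Slc39a8 (0.95), Pgp (0.95), Pex3 (0.94) and Dhtkd1 (0.94). Rpl12 (-0.98), Krt8 (-0.94) and Nars1 (-0.93) were the least like. For Nr0b2 the most alike were Esrrg (0.93), Ndnf (0.91), Nrp1 (0.85), Smim22 (0.85) and Nr3c2 (0.81), and the least alike Slpi (-0.90), Ism2 (-0.88) and Kcnip3 (-0.87). These correlations are descriptions picked from all tested probe sets, and the points share the array and its scaling. With arrays left out or with other scalings Pex3 stayed between 0.88 and 0.97, while Cnnm3 ran from 0.61 to 0.98, Rpl12 from -0.99 to -0.44 and Nrp1 from 0.24 to 0.93.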

How the data were processed

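Liver RNA of 12 rats was measured on 12 Affymetrix arrays. The deposited table holds 1 log-like score per probe set and array, and how the authors summarised and normalized it, and with which software, is not given in the sources used here, nor is the log base. Deposited scores lay between -1.00 and 4.83. The arrays were quantile normalized, since their medians spanned 0.138 while the typical probe set had a within-group SD of 0.0736. That span rested on myclobutanil replicate 1, with a deposited median of 0.157 against 0.0182 to 0.0552 in the other 11 arrays. Of 31099 probe sets, 57 control probe sets and then the dimmest 30% (9313) were left out. The platform annotation gave 1 gene for 20826 probe sets, and 20758 of these took their current symbol by Entrez ID from the RefSeq table of GRCr8. limma 3.58.1 (R 4.3.3) fitted 4 group means to all 12 arrays with an intensity trend and 8 residual degrees of freedom. Tests were two-sided, with Benjamini-Hochberg adjustment within each comparison, and were checked on simulated data. The slope on Cyp7a1 added its level as a covariate to the group means. No 2 arrays held identical values. The number of arrays limits the precision. Figures used matplotlib 3.10.9, pandas 2.3.3 and Python 3.11.15.

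The bile acid genes, the lists and the tests were chosen with earlier results of these data known. Named genes are the 10 bile acid genes, the called genes of each list (up to 6) or else the 2 with the smallest p, and the 5 most and 3 least like Cyp7a1 and Nr0b2. Marker genes, Per2, Pck1, Pdk4, Abca1, Nr1d2 and second probe sets were named after their values were seen. A list gene with several probe sets is given by the one with the highest mean. Alternatives were other scalings, dim filters, variance models, array weights, the mean of all probe sets of a gene, groups fitted alone, the replicate number as a block and each array left out.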

Additional observations from a re-analysis of the deposited data

How the results depend on the processing

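The differences rest on 3 rats a group, and with 1 array left out the count of probe sets called by limma ran from 30 to 922 for myclobutanil, 35 to 170 for propiconazole, 6 to 60 for triadimefon and 0 to 29 between myclobutanil and propiconazole. For slopes on Cyp7a1 it ran from 0 to 2. The count of bile acid genes called with myclobutanil ran from 0 to 1. Estimated array weights, whose iteration stopped before its tolerance, called 1668, 1313, 1028 and 343 probe sets in the 4 comparisons in that order and 1584 for slopes. They called 1 bile acid gene with propiconazole, 1 with triadimefon and 2 slopes, of Cyp27a1 and Slc10a1. Groups fitted alone gave 8, 648 and 621 probe sets with myclobutanil, propiconazole and triadimefon, and 0 bile acid genes with myclobutanil. A 50% filter on dim probe sets, or the mean of all probe sets of a gene, called 1 bile acid gene with propiconazole. Between myclobutanil and propiconazole, 1 probe set was called with median centring, 1 with the deposited values, 2 with the 50% filter and 5 with no intensity trend, and the mean of all probe sets of a gene gave 6 calls among 17493 features.

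The replicate numbers were not taken as pairs in the main fit. Of 18 same-numbered pairs 3 had a correlation of deviations over 0.1. These 18 correlations ran from -0.494 to 0.495, with a median of -0.0265. Arrays of unlike number were not correlated, so these values cannot tell whether same-numbered arrays share a batch. With the replicate number as a block, 180, 121, 87 and 0 probe sets were called, the Nr0b2 call with myclobutanil was kept, and that of Npas2 was lost (limma adjusted p = 0.0803). The replicate block turned the slopes of Cyp8b1 to 0.12 and Nr0b2 to 0.024. The cause of these changes was not tested.

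Signs turned in values that were not called. With array weights the difference with myclobutanil was 0.090 for Cyp27a1, -0.044 for Irs2 (main value 0.29) and 0.13 for Tat (-0.31). Between myclobutanil and propiconazole such weights gave 0.0054 for Cyp7a1, 0.064 for Slc10a1 and 0.063 for Abcb11, and for slopes 0.25 for Cyp8b1 and 0.020 for Abcb11. Slc27a5 with triadimefon was -0.042 with median centring, -0.053 with the deposited values and -0.032 with array weights. Without the 2 arrays farthest in Cyp7a1, slopes were 0.40 for Cyp8b1, 0.017 for Nr0b2 and 0.056 for Abcb11. With 1 array left out, differences with myclobutanil ran from -0.58 to 0.25 for Cyp7a1, -0.082 to 0.14 for Cyp27a1 and -0.22 to 0.012 for Nr1h4. Cyp7a1 with propiconazole ran from -0.36 to 0.30, and Slc27a5 with triadimefon from -0.011 to 0.21. Between myclobutanil and propiconazole the ranges were -0.59 to 0.28 for Cyp7a1, -0.19 to 0.079 for Slc27a5, -0.059 to 0.18 for Baat, -0.19 to 0.084 for Slc10a1 and -0.35 to 0.0098 for Abcb11. Slopes ran from -0.16 to 0.30 for Cyp8b1, -0.077 to 0.028 for Nr0b2 and -0.11 to 0.066 for Abcb11. Nr0b2 kept a difference below 0 for each compound against control under every setting run.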

Other observations

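Rat-to-rat differences within groups were also read for the listed genes outside the bile acid set, as slopes on the Cyp7a1 level. None of these slopes was called by limma, and the genes named here were chosen after their values were seen. Over all tested probe sets 49.1% of slopes were above 0, and 5.3% had an unadjusted p under 0.05 with either sign. Of 8 efflux genes 7 had a slope below 0, and 3 of them had an unadjusted p under 0.05. Abcg8 and Abcg5, the paired exporter of cholesterol into bile, had slopes of -0.19 ± 0.040 (unadjusted p = 0.000611, limma adjusted p = 0.324) and -0.30 ± 0.087 (limma adjusted p = 0.580). Abcc3 had a slope of -0.13 ± 0.059. Of 14 further synthesis genes 9 had a slope above 0, and Stard5, a cholesterol-binding protein, had 0.16 ± 0.044 (limma adjusted p = 0.556). Apoc2, an FXR target and the activator of lipoprotein lipase, had 0.15 ± 0.039 (limma adjusted p = 0.509). The median slope was -0.10 for the efflux genes and 0.063 for the synthesis genes, against -0.00098 for all tested probe sets. These slopes were computed with quantile normalization alone. Markers of blood cells, 4 tested, all had slopes below 0, with a median of -0.22, and their part in the slopes was not tested.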
